A study of Bos taurus with 24 samples.

Results

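The enzymes described here attach ubiquitin and related small proteins to other proteins or remove them again. They were taken from the count table by symbol: every gene whose symbol starts with UBE2, every gene whose symbol starts with USP followed by a digit (USP9Y left out), the activating enzymes UBA1, UBA2, UBA3 and UBA6, and the RING-type ligases RNF20, RNF40, RNF8 and RNF168. This gave 88 of the 24621 genes in the table. By their known roles they were 4 activating (E1) enzymes, 33 rows of conjugating (E2) enzymes, 47 rows of ubiquitin-specific proteases (USP) and 4 ligases. The symbol rule also took in USP6NL, which encodes a GTPase-activating protein of Rab proteins and not a protease, and UBE2D3, which the table lists as separate rows UBE2D3_1 and UBE2D3_2.

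RNA was sequenced from 24 single bovine (Holstein) early blastocysts, the stage at which the outer trophectoderm has just separated from the inner cell mass around a fluid-filled cavity. In vivo derived embryos (8 embryos, 5 male and 3 female) were collected from superovulated cows after insemination. Embryos produced in serum-containing medium (8 embryos, 3 male and 5 female) came from slaughterhouse oocytes that were matured and cultured with fetal bovine serum. Embryos produced in serum-free medium (8 embryos, 5 male and 3 female) came from the same kind of oocytes, matured with epidermal growth factor and cultured with bovine serum albumin, insulin, transferrin and selenium. All 3 groups were fathered by semen of a single Holstein bull, and all in vitro embryos were fertilized and cultured outside the animal, so that only the in vivo group differs from the others in mother, hormone treatment and surroundings at once. The labels do not tie an embryo to a mother, an in vitro experiment or a sequencing lane, and their part in any difference was not tested. The files give no coordinates, and genes are named by symbol only.

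Ubiquitin is passed along a chain of enzymes. An E1 activates it with ATP, an E2 takes it over, and a ligase (E3) brings the loaded E2 to the target protein. Chains of several ubiquitins send many proteins to the proteasome, whereas a single ubiquitin on histone H2A or H2B changes how chromatin is read, and USP enzymes take ubiquitin off again. In the preimplantation embryo the system is known for clearing maternal proteins, for driving the cleavage divisions through the anaphase-promoting complex and for histone marks.

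The deposited exon counts summed to between 3253051 and 9000447 per embryo, and between 11735 and 14732 genes had at least 1 count. Values are given as CPM, a gene's counts scaled to a common library total after trimmed mean (TMM) normalization, which are not corrected for gene length, so levels are compared between embryos and never between genes. Embryos of the serum group B1, B2, B5 and B7 had the fewest genes with a count (11735 to 12390, against 12943 or more in every other embryo). The 13 embryos labelled male carried 101 to 902 counts of the Y-linked gene DDX3Y and the 11 labelled female carried 0 to 2.

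Some markers of the first cell lineages also differed between the groups. The summed level of 6 trophectoderm markers was 7585 to 14806 CPM in vivo, 287 to 5171 CPM in serum and 4957 to 27414 CPM in serum-free medium. Of these 6, 4 could be tested and 3 (KRT8, KRT18 and GATA3) fell in serum against in vivo, KRT8 by -3.01 on the log2 scale (adjusted p = 0.00303). The remaining marker tested, at 0.35, was not called. The 4 inner cell mass markers summed to 298 to 404 CPM, 282 to 601 CPM and 188 to 441 CPM in the same order. Of these, 3 were tested in serum against in vivo and SOX2 rose (1.28 on the log2 scale, adjusted p = 0.0238). The others tested, at 0.63 and -0.52, were not called. The 4 primitive endoderm markers, among which SOX17 was at 0 in every in vivo and serum embryo, summed to 342 to 593 CPM, 24.9 to 236 CPM and 127 to 389 CPM. Of these, 2 were tested in serum against in vivo and PDGFRA fell (-2.01, adjusted p = 0.00114). The other, at 0.20, was not called. In serum-free medium against in vivo, 0 of 4 trophectoderm and 0 of 4 inner cell mass markers tested were called. Of the primitive endoderm markers, 1 of 2 tested was called lower there (log2 fold changes -0.999 and -0.198). Markers of cumulus, oviduct and blood cells stayed at or below 38.2 CPM in sum in every embryo. Each library was made from a whole embryo, so fewer cells of a type and less RNA per cell cannot be told apart, and the part of cell composition in the differences below was not tested.

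Each early blastocyst held reads of most of these genes. Between 75 and 84 of the 88 members had at least 1 count in an embryo. Together they took 0.591% ± 0.024 of all counts in vivo (SD, n = 8), 0.660% ± 0.025 in serum (n = 8) and 0.586% ± 0.045 in serum-free medium (n = 8). The in vivo embryos ranged from 0.553% to 0.620% and the serum embryos from 0.626% to 0.691%, with no overlap, while the serum-free embryos (0.486% to 0.626%) overlapped both groups.

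Some members were hardly seen. Of the 88, 17 never reached the limit for a test, for which all embryos of 1 or more of the compared groups had to hold 15 counts. They were UBE2D3_1, UBE2D3_2, UBE2L6 (an E2 for ISG15), UBE2U, USP2, USP3, USP13, USP18 (the protease of ISG15), USP20, USP26, USP27X, USP29, USP31, USP35, USP44, USP49 and USP50. UBE2D3_2 had no count in any embryo and UBE2D3_1 at most 2 counts. The UBE2D genes are close paralogs and the authors kept uniquely mapped reads only, so the counts of UBE2D1, UBE2D2, UBE2D3 and UBE2D4 are uncertain.

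In embryos produced in serum-containing medium, 15 of the 63 members tested differed from in vivo derived embryos, 12 higher and 3 lower (edgeR quasi-likelihood test, Benjamini-Hochberg adjusted p under 0.05 over all genes tested). Among those higher were the conjugating enzymes UBE2O, UBE2J2, UBE2A, UBE2K, UBE2W, UBE2C, UBE2B and UBE2N and the proteases USP7, USP21 and USP10. Lower were RNF8, USP4 and UBE2E3. Of the 15, 6 differed at least 2-fold, and all 6 were higher in serum. Of those 6, UBE2O and UBE2J2 reached the count limit only in the serum group, where they were high, so that the limit itself favoured a higher value in serum.

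Read against the whole table, the members were called about as often as other genes. The 15 calls were 23.8% of the members tested, against 28.5% of all 7339 genes tested. Higher calls made up 19% of the members and 16.3% of all genes, and lower calls 4.76% and 12.2%. At least 2-fold calls made up 9.52% of the members and 13.7% of all genes. The ranges of the 8 serum and 8 in vivo embryos did not overlap in 3 of 63 members (4.76%), against 7% of all genes. The median log2 fold change of the members was 0.21, with 39 values above 0 and 24 below, beside a median of 0.05 over all genes. Of the 63 members, 58 reached the count limit in both groups. With DESeq2's size factors in place of TMM the split was 11 higher and 5 lower.

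**Figure D1:**
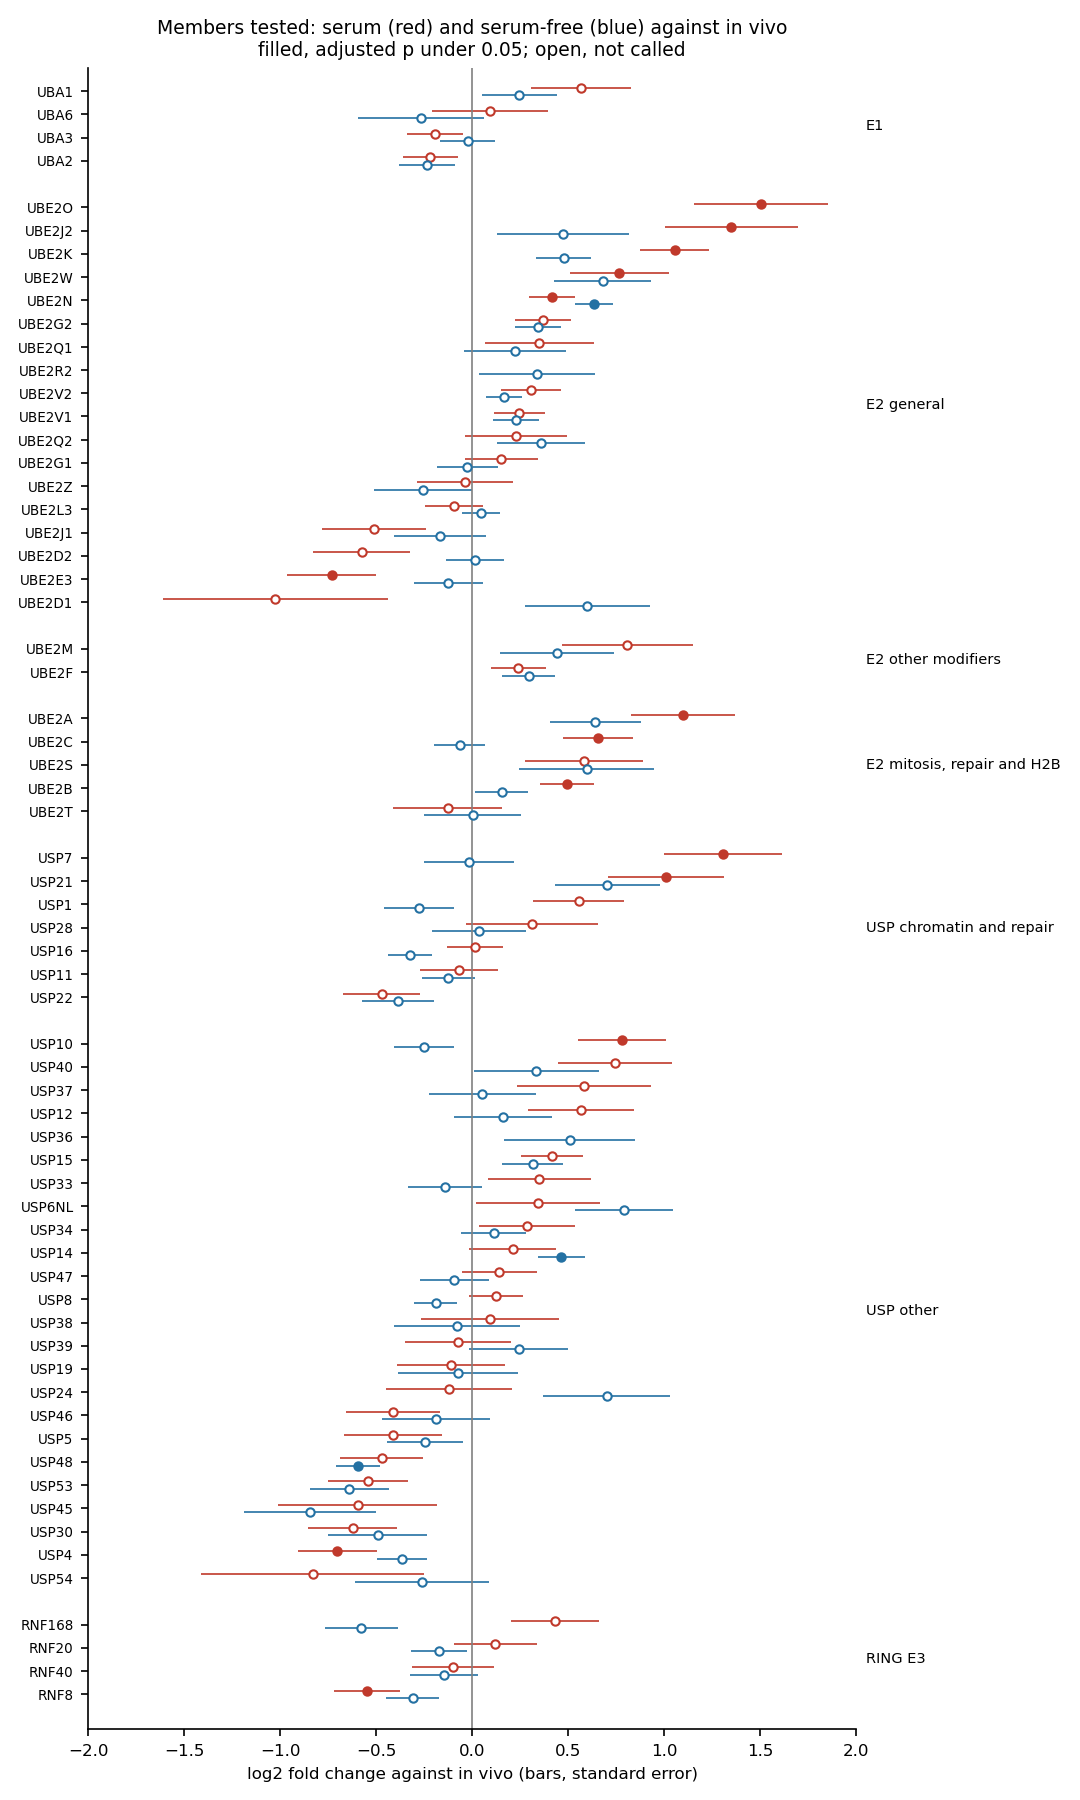
Log2 fold change against in vivo derived embryos (x axis) for members tested (y axis, grouped by role), in serum-containing medium (red) and serum-free medium (blue), with the standard error as a bar. Filled points passed an adjusted p of 0.05: 14 red points, 11 of them to the right of 0, and 3 blue points (UBE2N, USP14 and USP48).

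The 4 E1 enzymes, which open the cascade, passed the test in neither in vitro condition. UBA1, the main E1 for ubiquitin, ranged over 121 to 260.5 CPM (median 182) in vivo, 115 to 509 CPM (median 275) in serum and 117 to 300.2 CPM (median 217) in serum-free medium, and the groups overlapped (serum against in vivo, log2 fold change 0.57, SE 0.26, adjusted p = 0.108, where SE is the standard error). UBA1 is X-linked and the serum group held more females. With sex as a covariate its log2 fold change in serum was 0.25 (adjusted p = 0.335). In males alone it was -0.13 and in females alone 0.58. UBA6, the other ubiquitin E1, had log2 fold changes of 0.09 (SE 0.30) in serum and -0.27 (SE 0.33) in serum-free medium. The E1 of SUMO, UBA2, and the E1 of NEDD8, UBA3, had values of -0.22 and -0.20 in serum, with standard errors of 0.14 and 0.15. None of the 4 separated the serum embryos from the in vivo embryos.

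UBE2K, which builds ubiquitin chains recognised by the proteasome, was at 52.2 to 85.9 CPM (median 67.7) in vivo and 107 to 205 CPM (median 115) in serum (log2 fold change 1.05, SE 0.18, adjusted p = 0.00049). It was the called member with the smallest adjusted p, and every serum embryo was above every in vivo embryo. UBE2O and UBE2J2 were low in vivo and are given as values without a p, since the serum group alone brought them into the test. UBE2O, a large enzyme that works as E2 and E3 at once in protein quality control, was at 2.45 to 9.63 CPM (median 4.07) in vivo and 5.32 to 18.9 CPM (median 14.7) in serum (log2 fold change 1.50, SE 0.35), with all serum embryos but B6 above the highest in vivo embryo. UBE2J2, an E2 anchored in the endoplasmic reticulum that serves the disposal of misfolded proteins, was at 3.37 to 10.3 CPM (median 5.38) and 7.32 to 23.8 CPM (median 14.5) (log2 fold change 1.35, SE 0.35), with 5 of 8 serum embryos above every in vivo embryo.

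UBE2N builds a different kind of chain, used in signalling and DNA repair, together with UBE2V1 or UBE2V2, which lack a catalytic cysteine of their own. UBE2N was at 278 to 409 CPM (median 359) in vivo and 300.0 to 519 CPM (median 475) in serum, where 6 of 8 embryos exceeded the in vivo range and B2 and B3 lay within it (log2 fold change 0.41, SE 0.12, adjusted p = 0.0156). Its partners did not pass the test in serum. UBE2V1 had a log2 fold change of 0.24 (SE 0.13) and UBE2V2 of 0.31 (SE 0.16).

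UBE2W, which attaches ubiquitin to the amino terminus of proteins, was at 15.5 to 32.7 CPM (median 23.3) in vivo and 19.0 to 61.7 CPM (median 33.0) in serum (log2 fold change 0.77, SE 0.26, adjusted p = 0.0327), with 4 of 8 serum embryos above the in vivo range. The call was lost when any 1 of A2, A7, A8, A9, B2 or B5 was left out (log2 0.60 to 0.86 over the 16 embryos left out in turn). UBE2E3 was the E2 that fell. It was at 59.9 to 91.1 CPM (median 65.9) in vivo and 11.6 to 53.4 CPM (median 46.4) in serum, where all 8 embryos lay below every in vivo embryo and B2 lay far below the rest (log2 fold change -0.73, SE 0.23, adjusted p = 0.0236).

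The UBE2D enzymes, which work with many RING-type ligases, did not pass the test in serum, yet their values were uneven. UBE2D2 was at 31.3 to 37.1 CPM (median 34.1) in vivo and 7.72 to 41.2 CPM (median 21.2) in serum. In serum, 7 of 8 embryos lay below the in vivo range and the remaining embryo, B1, above it (log2 fold change -0.58, SE 0.25, adjusted p = 0.0911). UBE2D1 was at 6.26 to 31.3 CPM (median 18.4) and 0 to 16.1 CPM (median 9.19), with 3 serum embryos below the in vivo range (log2 fold change -1.02, SE 0.58, adjusted p = 0.192). UBE2D4 was too low to be tested between conditions, with 0.242 to 5.42 CPM (median 3.77) in vivo and 0 to 4.93 CPM (median 3.56) in serum.

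Both conjugating enzymes of the ubiquitin-like protein NEDD8 missed the threshold in serum. UBE2M had a log2 fold change of 0.81 (SE 0.34, adjusted p = 0.0791) and UBE2F of 0.24 (SE 0.14, adjusted p = 0.212).

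Of the 5 E2 enzymes of mitosis, DNA repair and histone H2B, 3 rose in serum (60%, beside 16.3% of all genes called higher), a share that rests on 5 genes and was not tested against the rest. UBE2A and UBE2B are close homologs of yeast Rad6 that place ubiquitin on H2B with RNF20 and RNF40, so that reads may be split between them. UBE2A was at 12.8 to 36.6 CPM (median 26.4) in vivo and 31.0 to 95.1 CPM (median 49.3) in serum (log2 fold change 1.10, SE 0.27, adjusted p = 0.00577), and UBE2B at 81.6 to 113 CPM (median 98.9) and 106 to 188 CPM (median 129) (log2 fold change 0.49, SE 0.14, adjusted p = 0.0129). In each, 6 of 8 serum embryos were above the highest in vivo embryo. UBE2A is X-linked and the serum group held more females. With sex as a covariate its log2 fold change was 0.89 (adjusted p = 0.00927).

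UBE2C, which starts ubiquitin chains on the targets of the anaphase-promoting complex in mitosis, was at 244 to 410.5 CPM (median 298) in vivo and 282 to 726 CPM (median 452) in serum (log2 fold change 0.66, SE 0.18, adjusted p = 0.0121), with 4 of 8 serum embryos above the in vivo range and the 3 male embryos among the highest 4. UBE2S, which lengthens those chains, did not pass the test (log2 fold change 0.58, SE 0.31, adjusted p = 0.157), nor did UBE2T, the E2 of the Fanconi anaemia pathway (log2 fold change -0.13, SE 0.28, adjusted p = 0.757). Of 15 mitotic and replication genes set beside these enzymes, 14 were tested and 6 rose in serum (AURKA, CCNA2, CCNB1, FANCI, PCNA and PLK1), AURKA by 1.13 and CCNB1 by 0.69 on the log2 scale, and none fell. This was 42.9% of the 14, beside 16.3% of all genes called higher.

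**Figure D2:**
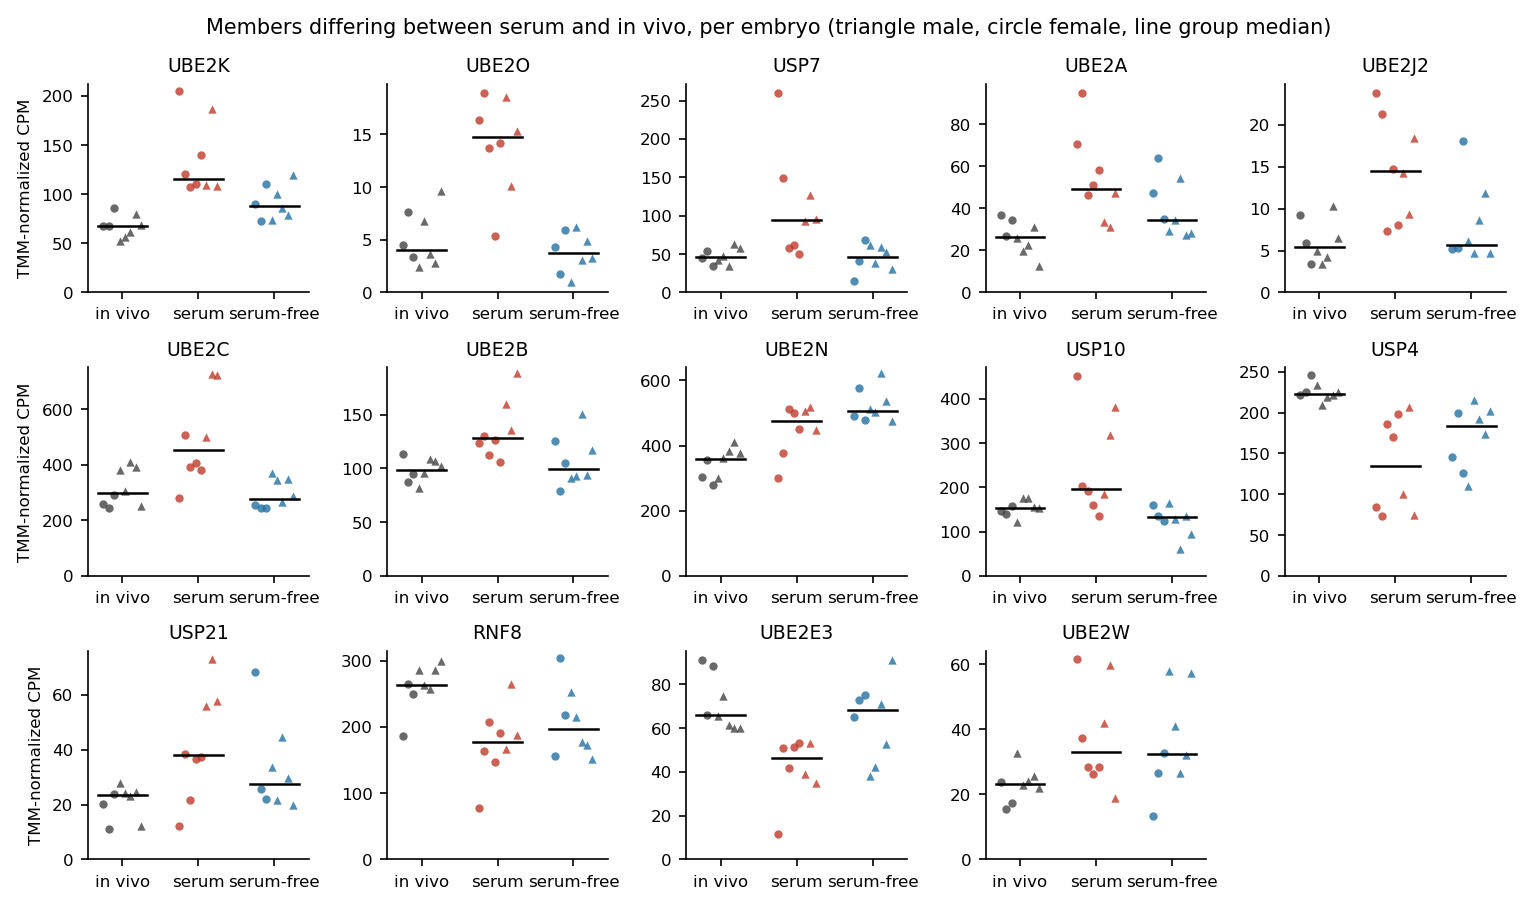
CPM (y axis) of 14 members that differed between serum-containing medium and in vivo, 1 point per embryo in each of the 3 conditions (x axis), triangles male and circles female, with the group median as a line. In UBE2K every serum embryo lies above, and in USP4 and UBE2E3 below, every in vivo embryo, whereas the other 11 overlap.

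Among the USP enzymes of chromatin and DNA repair, 2 of the 7 tested rose in serum and none fell, a called share of 28.6% beside 28.5% of all genes. USP7, which protects p53, its ligase MDM2 and the DNA methyltransferase DNMT1 from degradation, was at 34.4 to 62.9 CPM (median 46.4) in vivo and 50.0 to 259 CPM (median 94.4) in serum (log2 fold change 1.30, SE 0.31, adjusted p = 0.00446). In serum 5 of 8 embryos exceeded the in vivo range and B2 stood highest. Without B2 the log2 fold change of USP7 was 0.96. USP21, a protease of ubiquitinated H2A, was at 11.0 to 28.0 CPM (median 23.6) and 12.3 to 72.9 CPM (median 37.9) (log2 fold change 1.01, SE 0.30, adjusted p = 0.0181), with 6 of 8 serum embryos above the in vivo range.

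The remaining chromatin proteases gave smaller values. USP16, which also acts on H2A, had a log2 fold change of 0.02 (SE 0.14) in serum. USP22, the catalytic subunit of the deubiquitinating module of the SAGA coactivator, was at 51.4 to 143 CPM (median 113) in vivo and 52.9 to 109 CPM (median 76.1) in serum and missed the threshold (log2 fold change -0.47, SE 0.20, adjusted p = 0.0791). USP1, which removes ubiquitin from FANCD2 and PCNA, was at 55.2 to 78.8 CPM (median 59.7) and 54.2 to 169 CPM (median 75.4) (log2 fold change 0.55, SE 0.24, adjusted p = 0.0833). Its serum embryos spread to both sides of the in vivo range, 4 above it and 2 below. WDR48, the activating partner of USP1, rose by 0.90 (adjusted p = 0.0276).

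Of the 23 other USP-named genes tested, 1 rose and 1 fell in serum (8.7% called, beside 28.5% of all genes). USP10, a protease that stabilises p53 and binds stress granule proteins, was at 122 to 175 CPM (median 154) in vivo and 136 to 451 CPM (median 197) in serum (log2 fold change 0.78, SE 0.23, adjusted p = 0.0166). In serum 6 of 8 embryos exceeded the in vivo range, of which B2, B5 and B7 stood furthest. USP4, a broadly acting relative of USP11 and USP15, was at 209 to 247 CPM (median 223) in vivo and 73.0 to 207 CPM (median 135) in serum (log2 fold change -0.70, SE 0.21, adjusted p = 0.0169), and all 8 serum embryos lay below every in vivo embryo. The other 21 had log2 fold changes between -0.83 (USP54) and 0.74 (USP40) and did not pass.

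Of the 4 RING-type ligases of histones, 1 passed the test in serum, RNF8, which fell (25% of the 4, beside 28.5% of all genes called). RNF8, which is recruited to DNA double-strand breaks and prepares chromatin for RNF168, was at 186 to 299 CPM (median 264) in vivo and 77.7 to 265 CPM (median 177) in serum (log2 fold change -0.55, SE 0.17, adjusted p = 0.0226), with 4 of 8 serum embryos below the in vivo range. RNF168, which ubiquitinates H2A at breaks, was at 37.6 to 90.5 CPM (median 65.1) and 57.5 to 164 CPM (median 78.2) and did not pass (log2 fold change 0.43, SE 0.23, adjusted p = 0.158). RNF20 and RNF40, the paired ligases of H2B that work with UBE2A and UBE2B, had log2 fold changes of 0.12 (SE 0.22) and -0.10 (SE 0.21).

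The serum comparison was repeated without B1, B2, B5 and B7, the embryos with the fewest genes. This leaves 4 serum embryos, all female, against a mixed in vivo group, so that gene number, sex and the smaller group cannot be told apart in it. In this fit 10 members were called, 5 higher and 5 lower, and 6 of the original 15 were among them: UBE2A, UBE2K, UBE2O, UBE2N, RNF8 and UBE2E3. The share of all genes called in this fit is not given, so these counts are not a result about the members. At least 2-fold calls fell from 6 to 2. The log2 fold change was then 0.83 (adjusted p = 0.00163) for UBE2K and 1.26 (adjusted p = 0.00413) for UBE2A. For UBE2O it was 1.35. UBE2J2 missed the threshold at 1.12. USP7 went to 0.77 (adjusted p = 0.056), UBE2C to 0.42 (adjusted p = 0.0755) and USP10 to 0.18 (adjusted p = 0.39). UBA1 was called in this fit, at 0.91 (adjusted p = 0.00637).

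With sex as a covariate 14 of the 15 calls were kept. In male embryos alone (3 serum against 5 in vivo) 9 members were called, 6 of them among the 15, and in female embryos alone (5 against 3) none, although 11 had an unadjusted p under 0.05. The shares of all genes in these single-sex fits are not given. In every one of the 15 the sign was the same in males and females, for example 1.04 and 0.95 for UBE2K and -0.64 and -0.95 for UBE2E3.

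Embryos produced in serum-free medium stood closer to in vivo derived embryos. Of 64 members tested 3 differed, which is 4.69% beside 5.8% of all 7314 genes tested. UBE2N and USP14 were higher and USP48 was lower. No member differed at least 2-fold (2.24% of all genes did). An unadjusted p under 0.05 was reached by 17 of the 64 members and by 1580 of the 7314 genes. DESeq2 called 8 members, given here without its share of all genes. The median log2 fold change of the members was -0.01, with 32 values on each side of 0, beside 0.01 over all genes. This comparison shares its in vivo embryos with the serum comparison.

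UBE2N was at 475 to 622 CPM (median 507) in serum-free medium, above 278 to 409 CPM (median 359) in vivo without overlap (log2 fold change 0.63, SE 0.10, adjusted p = 0.00125). It was the member called in both in vitro conditions. Its partners UBE2V1 and UBE2V2 had log2 fold changes of 0.23 (SE 0.12) and 0.16 (SE 0.09) and did not pass.

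USP48, a nuclear protease, was at 444 to 624 CPM (median 562) in vivo and 252 to 417 CPM (median 355) in serum-free medium, again without overlap (log2 fold change -0.59, SE 0.12, adjusted p = 0.00434). In serum it was at 106 to 604 CPM (median 387), where 6 of 8 embryos lay below the in vivo range, and did not pass (log2 fold change -0.47, SE 0.22, adjusted p = 0.104). USP14, which trims ubiquitin chains on the proteasome, was at 72.4 to 113 CPM (median 79.2) in vivo and 92.9 to 136 CPM (median 113) in serum-free medium, with 4 of 8 embryos above the in vivo range (log2 fold change 0.46, SE 0.12, adjusted p = 0.0302). Its call was lost when any 1 of A1, A2, A3, A6, A7 or C2 was left out, with log2 fold changes from 0.42 to 0.53.

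Several members came near the threshold in serum-free medium without passing it. UBE2K, the clearest member in serum, was at 72.7 to 119 CPM (median 88.3), with 5 of 8 embryos above the in vivo range (log2 fold change 0.48, SE 0.15, adjusted p = 0.0582). USP4, at 111 to 215 CPM (median 183), had 7 of 8 embryos below the in vivo range (log2 fold change -0.36, SE 0.13, adjusted p = 0.102). RNF168 was at 29.2 to 51.9 CPM (median 43.1) (log2 fold change -0.58, SE 0.19, adjusted p = 0.0793) and USP16 at 76.3 to 124 CPM (median 104) (log2 fold change -0.32, SE 0.11, adjusted p = 0.0956). UBE2O was too low to be tested, at 0.954 to 6.18 CPM (median 3.77).

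**Figure D3:**
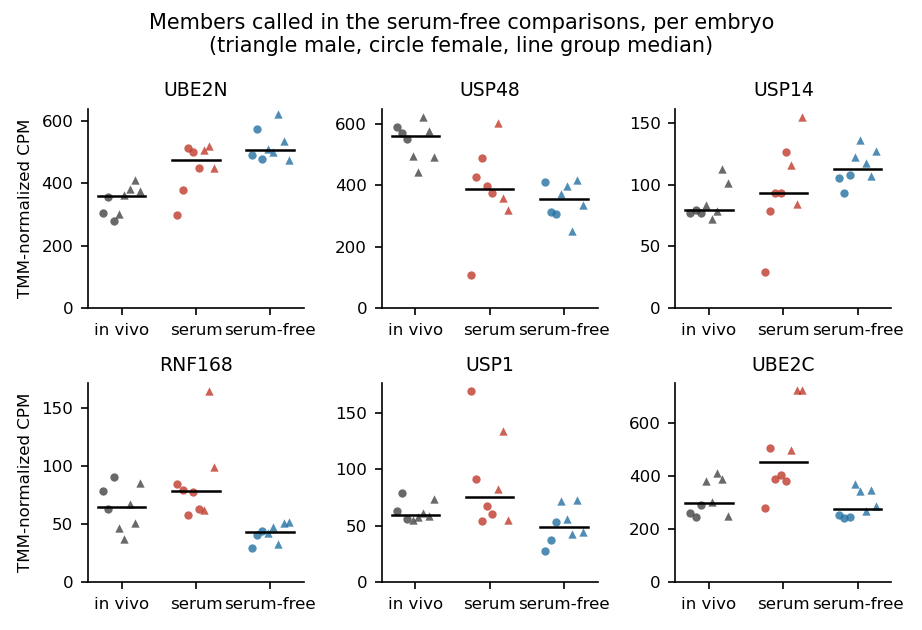
CPM (y axis) per embryo of 6 members called in a comparison with the serum-free group, in the 3 conditions (x axis), triangles male and circles female, with the group median as a line. UBE2N in serum-free medium lies above and USP48 below all in vivo embryos, and RNF168 in serum lies above all serum-free embryos.

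Compared directly, 7 of 63 members differed between the 2 culture media, and all 7 were higher in serum. This was 11.1% of the members, beside 16.9% of all 7181 genes tested and 9.27% called higher in serum. They were UBE2O, USP7, USP10, RNF168, USP1, UBE2C and UBE2K. At least 2-fold calls were 4 (6.35%), beside 8.97% of all genes. The median log2 fold change was 0.10 over the members and 0.04 over all genes.

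USP7 was at 15.5 to 68.6 CPM (median 46.3) in serum-free medium, with 5 of 8 serum embryos above that range (log2 fold change 1.32, SE 0.35, adjusted p = 0.019), and USP10 at 61.1 to 164 CPM (median 132), with 6 of 8 above (log2 fold change 1.02, SE 0.26, adjusted p = 0.016). RNF168, at 29.2 to 51.9 CPM (median 43.1) in serum-free and 57.5 to 164 CPM (median 78.2) in serum-containing medium, did not overlap between the media (log2 fold change 1.00, SE 0.22, adjusted p = 0.00814). UBE2O, again brought into the test by the serum group alone, was at 0.954 to 6.18 CPM (median 3.77) in serum-free medium, with 7 of 8 serum embryos above that range (log2 fold change 1.89, SE 0.38). With 15 counts required in every embryo, the calls of at least 2-fold between the media went from 4 to 1.

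Against in vivo, RNF168 had values of opposite sign in the 2 media, and neither passed (0.43 in serum and -0.58 in serum-free medium). RNF8, which acts before RNF168, had a log2 fold change of -0.24 between the media (SE 0.19). USP1 had a value of 0.83 (SE 0.27, adjusted p = 0.044), UBE2C of 0.71 (SE 0.18, adjusted p = 0.0144) and UBE2K of 0.57 (SE 0.19, adjusted p = 0.0441). The UBE2K call was lost in 11 of 16 fits that left out a single embryo (B2, B3, B5, B7, B8, C1, C2, C3, C4, C6 or C10, log2 0.43 to 0.64). The USP1 call was lost in 9 (without B2, B3, B5, C2, C3, C4, C7, C8 or C10, log2 0.59 to 0.92). Without B1, B2, B5 and B7 edgeR called 0 of 65 members (11 at an unadjusted p under 0.05), and the 7 members' log2 fold changes ran from 0.36 (UBE2K) to 1.77 (UBE2O).

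Female and male embryos were compared over all 24 embryos with condition in the fit. Of 71 members tested 2 differed, which is 2.82% beside 2.24% of all 8710 genes. UBA1, which is X-linked, was higher in females (log2 fold change 0.82, SE 0.15, adjusted p = 0.00127). In vivo, males were at 121 to 192 CPM and females at 207 to 260.5 CPM. In serum the values were 115 to 173 CPM and 264 to 509 CPM, and in serum-free medium 117 to 249 CPM and 277 to 300.2 CPM, so that the sexes did not overlap in any condition. With 3 to 5 embryos of a sex, UBA1 was not called within a single condition (0 members called by edgeR in each, with 8, 7 and 4 at an unadjusted p under 0.05), where its log2 differences were 0.56, 1.26 and 0.71 in the same order.

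UBE2C was lower in females (log2 fold change -0.49, SE 0.11, adjusted p = 0.0103). Males and females were at 251 to 410.5 CPM and 244 to 293 CPM in vivo, 498 to 726 CPM and 282 to 506 CPM in serum, and 267 to 370.1 CPM and 244 to 253 CPM in serum-free medium. The sexes overlapped in vivo and in serum, and in serum-free medium the lowest male lay above the highest female. CDC20, an activator of the anaphase-promoting complex that UBE2C serves, was lower in females by -0.41 on the log2 scale (adjusted p = 0.0459).

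No other X-linked member was called by sex, although UBE2A and USP11 were, like UBA1, higher in females by estimate. UBE2A was at 12.8 to 31.0 CPM in males and 27.0 to 36.6 CPM in females in vivo. In serum these ranges were 31.0 to 47.5 CPM and 46.1 to 95.1 CPM. In serum-free medium they were 27.3 to 54.7 CPM and 35.1 to 63.8 CPM. UBE2A missed the threshold (log2 fold change 0.62, SE 0.18, adjusted p = 0.085). USP11, a protease of DNA repair, had a female to male value of 0.22 (SE 0.16). USP27X and USP26 were below the count limit, with at most 3.97 CPM of USP27X in any embryo.

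**Figure D4:**
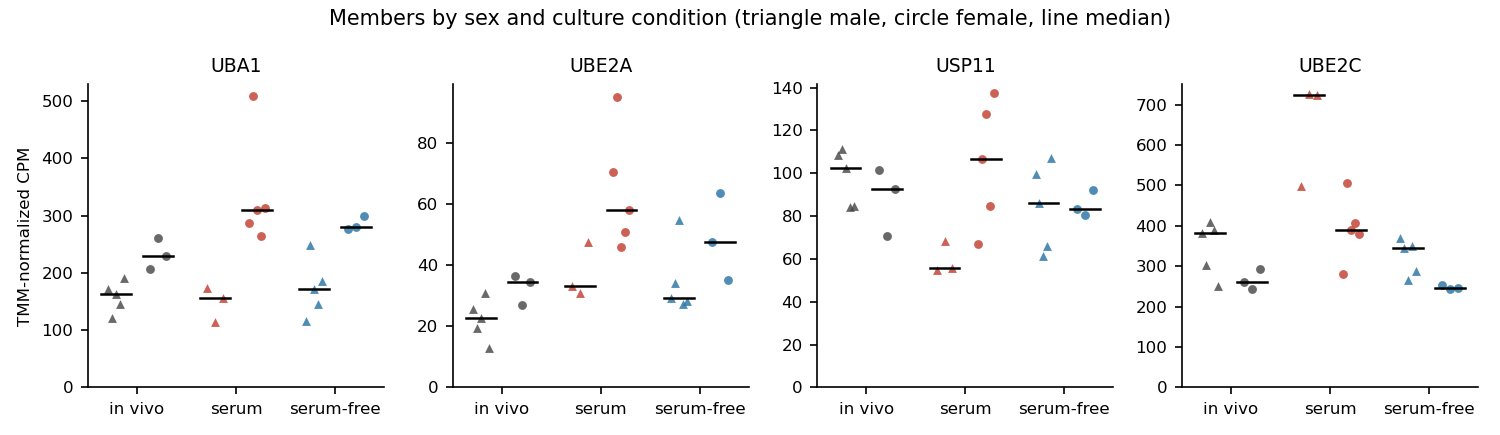
CPM (y axis) of the X-linked members UBA1, UBE2A and USP11 and of UBE2C in male (triangles) and female (circles) embryos of the 3 conditions (x axis), with medians as lines. UBA1 separates the sexes in all 3 conditions, and USP11 is lower in the 3 serum males (54.9 to 68.5 CPM) than in most other embryos.

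Whether serum acted differently on males and females was tested as an interaction over the in vivo and serum embryos. Of 70 members tested 0 were called by edgeR and 0 by DESeq2 (0% of all 8446 genes by edgeR). An unadjusted p under 0.05 was reached by 4 of the 70 members and by 436 of the 8446 genes. The 4 members are named after their values were seen. The serum effect in males minus that in females was -1.49 (SE 0.44) on the log2 scale for USP5, which takes apart free ubiquitin chains, -0.99 (SE 0.33) for USP11, -0.55 (SE 0.25) for UBA2 and 0.96 (SE 0.43) for RNF168. Adjusted p was 0.664 or more for each.

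The spread between embryos of a group was also wider in vitro. Over the 57 members with a mean of at least 10 CPM, the median SD of log2(CPM + 1) was 0.31 in vivo, 0.49 in serum and 0.38 in serum-free medium. The SD exceeded that in vivo in 44 of 57 members in serum (77.2%) and in 36 of 57 in serum-free medium (63.2%). Over all 6873 genes at that level the shares were 83.7% and 68.9%, so the members widened no more often than the table as a whole.

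Other genes of the pathway were listed by role, 69 in all, of which 67 were in the table and 55 were tested. In serum against in vivo 14 of them were called, 12 higher and 2 lower, which is 25.5% beside 28.5% of all genes, with a median log2 fold change of 0.17. None of the 4 other E1 genes tested and none of the 4 E2 genes without the UBE2 name passed.

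Partners and other ligases of histones held 8 of these calls in serum. Among the partners of the USP and RNF enzymes 4 of 9 rose (44.4%, beside 16.3% of all genes called higher), namely PAF1 (1.22), a subunit of the elongation complex that recruits RNF20 and RNF40, TP53BP1 (1.05), which reads the H2A mark of RNF168, WDR48 (0.90) and ENY2 (0.72), a subunit beside USP22. Among the other ligases of histones 4 of 12 rose (33.3%, beside the same 16.3%), namely CUL4B (1.70), TRIP12 (1.24), PCGF1 (1.09) and UHRF1 (1.09). Of 22 other deubiquitinating enzymes and SUMO or NEDD8 proteases, SENP5 (1.15), OTUD5 (0.75) and PSMD14 (0.56) rose, and UCHL5, a protease bound to the proteasome, fell (-0.94). All these are log2 fold changes of serum over in vivo. The serum group held more females, and sex was not in this fit. Between the sexes, 1 of the other ligases of histones (8.33%) was called higher in females. So was 1 of the other deubiquitinating enzymes and SUMO or NEDD8 proteases (4%), beside 1.64% of all genes. The part of sex in the serum values of these lists was not tested.

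In serum-free medium 3 of the 55 other pathway genes tested were called against in vivo, which is 5.45% beside 5.8% of all genes. UHRF1, which places ubiquitin on histones in the maintenance of DNA methylation, was higher (1.81), as was UCHL3 (0.55), and UBB was lower (-0.36). Between the media 13 of 55 tested were called (23.6%, beside 16.9% of all genes), 11 of them higher in serum (20%, beside 9.27%).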

How the data were processed

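RNA of single embryos was amplified and sequenced without molecular identifiers and without strand information. The deposited values are counts: per the labels and the study's methods, the authors mapped paired reads to the bovine genome UMD 3.1 with the CLC Genomics Workbench and counted, per gene, the fragments with a unique exonic position. Groups and sexes came from the sample titles, and each embryo is 1 replicate.

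Each comparison used the embryos concerned, TMM normalization and edgeR 4.0.16 in R 4.3.3 (quasi-likelihood test, two-sided), on genes with 15 or more counts in all embryos of 1 or both groups and Benjamini-Hochberg adjustment over all of them. A gene was called at an adjusted p under 0.05, and a fold of at least 2 was counted separately. Standard errors are approximate, taken from the estimate and its F value. Printed CPM use TMM factors over all 24 embryos. Sex was tested over all embryos with condition in the fit, and its interaction with serum over the in vivo and serum embryos. No embryo was dropped, unless stated. Total counts and the number of genes seen differed between embryos, and the counts carry counting error plus amplification error, which the spread between embryos includes. No 2 embryos held near-identical counts.

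Members called at least 2-fold, all E1 and RING members, the member with the smallest p in each class, X-linked members and close paralogs were given by group. UBE2C, UBE2E3, UBE2W, USP4, USP14 and USP1 were added after their values were seen because they were called, and so were the members named only in ranges or near the threshold. The members and lists were chosen with earlier results of these data known. Alternatives were DESeq2 1.42.0, edgeR's exact test, other count limits and scalings, thinned counts, 1 fit over all embryos, sex as a covariate, each sex alone, shared embryo numbers as a block and each embryo left out in turn. Leaving out the 4 serum embryos with the fewest genes was chosen after seeing the data. Counts of members in these alternative fits are given without the share of all genes in the same fit. The test was checked on simulated counts. Symbols were looked up in RefSeq's ARS-UCD2.0 gene table, where 86 of 88 matched, and no sequence or coordinate is printed because that assembly is not the one of the files. A few genes that entered the counts are not reported here by name.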

Additional observations from a re-analysis of the deposited data

Results flagged for a closer look

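Within each group of 8 embryos, 1 embryo stood apart from the other 7 (Dixon's ratio of gap to range) in 7 of the 111 groups examined, and chance gives about 1 in 20. In the serum group, B2 had 259.5 CPM of USP7, where the others had at most 149, and 11.6 CPM of UBE2E3, where the others had at least 34.9. B2 was also the embryo with the lowest trophectoderm marker sum. B5 had 164.4 CPM of RNF168, against at most 99.5 in the other serum embryos. Among the in vivo embryos, A6 had 186.3 CPM of RNF8, against at least 249 in the others.

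The other 3 cases were members below the limit for a test. USP26, a protease known from the testis, was at 11.29 CPM in serum embryo B3 and at 3.145 CPM in in vivo embryo A9, with at most 0.368 CPM in the other serum embryos and 0 in the other in vivo embryos. UBE2D3_1 was at 0.5554 CPM in serum-free embryo C4, which rests on 2 counts.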

How the results depend on the processing

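No member that was called changed sign under any alternative run. Against in vivo, the count of serum calls went from 15 to 6 with the shared embryo numbers as a replicate block (5 of the 15 among them), to 9 in males alone (6 of the 15) and to 0 in females alone, and the count of at least 2-fold from 6 to 2 with 15 counts required in every embryo, 3 under the block, 0 in females and 2 without the 4 serum embryos with the fewest genes (chosen after seeing the data). The count of serum-free calls went from 3 to 8 with DESeq2, 6 with edgeR's exact test, 1 in a single fit over all 24 embryos, 1 in males, 0 in females and 2 under the replicate block. The count between the media went from 7 to 4 with 15 counts required in every embryo, and 0 under the block, in females or without the 4 serum embryos, and that of at least 2-fold from 4 to 2 with any gene that had a count, 1 with 15 counts in every embryo, and 0 under the block, in females or without the 4 serum embryos. The count of sex calls went from 2 to 0 within each condition, where fewer embryos were compared. Each single-sex and within-condition fit also had fewer embryos; for the other shifts the cause was not tested. At an unadjusted p under 0.05, edgeR counted 10 members between the media under the block, and in females 11, 8 and 7 for serum, serum-free and the media. Leaving out each embryo in turn gave 13 to 18 serum calls (4 to 7 of at least 2-fold, fewest without A8), 2 to 5 serum-free calls (most without C10), 5 to 8 between the media (2 to 5 of at least 2-fold, fewest without B2) and 2 to 3 by sex. The deviations of same-numbered embryos from their group means correlated between -0.15 and 0.09 over 7 pairs in each comparison, none above 0.1. Differently numbered embryos were not correlated for reference. Whether the numbers mark a shared experiment or lane was not tested. All 15 serum calls were kept with DESeq2, edgeR's exact test, thinned counts and library totals alone. When any gene that had a count was tested, 10 of the 15 were kept. With 15 counts required in every embryo of both groups, 11 of the 13 that had a value were kept. DESeq2's size factors in the edgeR fit kept 14, as did 1 fit over all 24 embryos. At these depths 17 members reached the count limit in no comparison.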

Other observations

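Several members below the limit for a test varied widely among embryos of a group. USP18, the protease of ISG15 and a known target of interferon, was at 0.201 to 4.59 CPM (median 1.67) in vivo, 0.549 to 22.9 CPM (median 2.83) in serum and 0 to 3.74 CPM (median 2.31) in serum-free medium. USP44, a protease of the spindle checkpoint that also acts on H2B, was at 0.484 to 7.43 CPM (median 1.50), 0 to 4.78 CPM (median 0.547) and 0 to 10.6 CPM (median 2.65) in the same order, and USP3, a protease of H2A, at 0 to 18.9 CPM (median 2.89), 1.10 to 15.3 CPM (median 6.62) and 0.494 to 8.40 CPM (median 3.54). USP13 was at 0.178 to 4.11 CPM (median 0.976) in vivo, 0 to 10.5 CPM (median 1.60) in serum and 0.171 to 13.2 CPM (median 2.07) in serum-free medium. The 3 groups overlapped in each of these 4 genes, and no difference was tested.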
